A study of Mus musculus with 12 samples.

Results

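The Rbm38 crosslinking experiment of this series lists 49260 regions of the mouse genome, called clusters below, each with the level of Rbm38-bound RNA set against a size-matched input. All clusters of that comparison were taken, out of 124941 in the series. The others belong to the same kind of experiment on Puf60, with 36227 clusters for the form with exon 5 and 39454 for the form without it. The cells were N2A, a mouse neuroblastoma line. Flag-tagged Rbm38 was expressed from a Flp-in cassette under doxycycline control (1 µg/ml for 24 h). The cells were then exposed to ultraviolet light of 254 nm (150 mJ/cm2), which links proteins to RNA they touch, and Rbm38 was recovered with an antibody against Flag. Rbm38 had 3 CLIP libraries and 1 size-matched input library from induced cells, for which no antibody is listed. Each Puf60 form also had 3 CLIP libraries and 1 input, made the same way, except that the CLIP cells of the form with exon 5 were induced for 48 h and those of its input for 24 h. The series holds 12 libraries.

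The protein was thus overexpressed with a tag in 1 cell line, and no CLIP library from uninduced cells was analysed here. The deposited tables hold 1 log2 fold change of CLIP over input, 1 p-value and 1 adjusted p-value per cluster, and no value per library. Depth and the spread between the 3 CLIP libraries are therefore unknown, and 1 input library gives no spread of its own. The sample titles number the CLIP libraries BR1 to BR3, and the labels do not say whether these came from separate cultures. The 1st and 3rd CLIP libraries list the same reverse transcription primer, and the 2nd shares its primer with the input. A cluster is called enriched below where its deposited adjusted p is under 0.05, and the rest are called other clusters. Neighbouring clusters share a transcript and reads of the same libraries, so clusters are not replicates: shares below carry 95% Wilson intervals, which cover counting error over clusters only, and no test was made between groups of clusters.

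Rbm38 is an RNA-binding protein with a single RNA recognition motif, and its gene is a direct target of p53. It is known for binding AU-rich, U-rich and GU-rich stretches in the 3′ untranslated regions of mRNAs, where it changes the stability or translation of the message. Messages reported for it include those of p21, p53, Mdm2 and HuR, and it also takes part in exon choice during the maturation of red blood cells. Puf60, which serves here as the protein set beside it, is a splicing factor that binds U-rich RNA near 3′ splice sites.

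The only stretches of genome sequence read here were the RefSeq start windows (build GRCm38.p6, 250 nt before to 50 nt after a gene's start). They wholly hold 215 Rbm38 clusters, of which 67 (31.2%) were enriched, against 50.9% of all Rbm38 clusters. GTGTG, the DNA form of the GU-rich element, was searched on the strand of the cluster alone, and it overlaps TGTGT in longer GT runs. It was present in 13 of the 67 enriched clusters (19.4%, 11.7 to 30.4) and in 9 of the 148 other clusters (6.08%, 3.23 to 11.2). Of 394212 stretches of 50 nt drawn from all 32851 windows, 5.24% held it. The enriched clusters were more often wider than that: 52 of 67 were 50 nt wide, against 135 of 148 others. A wider cluster has more places for the motif, and the part of width was not tested. Among enriched Puf60 clusters, GTGTG was in 0 of 52 for the form with exon 5 and in 1 of 54 for the form without it. The following sites of 30 nt are shown because they carry this difference. All 5 lie in enriched clusters, run 5′ to 3′ on the strand of the cluster, and have GTGTG in capitals. They come from the windows of Sp3 (chr2:72979289-72979318, minus strand), Pigp (chr16:94371101-94371130, plus strand, opposite to Pigp and within Ttc3), Atp1b3 (chr9:96363694-96363723, minus strand), Rbbp6 (chr7:122970401-122970430, plus strand) and Rheb (chr5:24842436-24842465, minus strand).
Sp3: gccgcctttttGTGTGTGTGtttGTGTGTG
Pigp: gggggtcttttGTGTGcgcgtcgcctggcg
Atp1b3: cgagctccgggcGTGTGTGggttgcaggga
Rbbp6: tGTGTGcggtgggggcctgggcctggggac
Rheb: cgcgcggtcacgtggGTGTGttgttggggg

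The authors' deposited table gave these 5 clusters log2 folds of 3.11, 2.86, 2.42, 1.98 and 1.76, in the order printed. The Sp3 site, in the gene of a zinc finger transcription factor, holds the longest GT run of the 5 and the highest fold, but a fold did not need the motif. The cluster in the start window of Eif4e, the gene of the cap-binding translation factor, reached 4.54 per the authors' deposited table with an A-rich stretch and no GTGTG. Conversely, a cluster at the start of Rpl14, a ribosomal protein gene, held GTGTG at its edge and had a log2 fold of -0.35 per the authors' deposited table. That of Gse1 held the motif and had 2.19 per the authors' deposited table with an adjusted p of 1. The Bloc1s1 site, from one of the clusters of lowest fold in these windows (-1.13 per the authors' deposited table), is shown with them. Eif4e lies at chr3:138527061-138527090 (plus strand), Rpl14 at chr9:120571521-120571550 (plus strand), Gse1 at chr8:120537367-120537396 (plus strand) and Bloc1s1 at chr10:128923496-128923525 (minus strand).
Eif4e: tttggaagaaaaaaaaaaacttcttgcctt
Rpl14: tcgctgagcgccgccaacatggtgaGTGTG
Gse1: gcgttgcgcttggGTGTGtcctcagcggcg
Bloc1s1: cgtgacgccttccgggtgagccaaggcata

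Some T-rich words, TTTTT among them, differed more in share than GTGTG did. TTTTT was in 25.4% of the enriched clusters (16.5 to 36.9) and in 4.73% of the others (2.31 to 9.44), with 5.22% of all 50-nt stretches holding it. Of the 67 enriched clusters, 10 held GTGTG alone, 14 held TTTTT alone, 3 held both and 40 held neither. T made up 28.0% of the bases of enriched clusters and 23.0% of those of the others, so base composition moved with the motif count, and its part was not tested. Among all 1024 words of 5 letters, GTGTG ranked 8th by the difference in share, and CTTTT ranked 1st (29.9% of enriched clusters, 6.76% of the others). For the Puf60 form with exon 5, TTTTT was in 17.3% of enriched and 17.5% of other clusters, and for the form without exon 5 in 14.8% and 11.5%. Start windows are not where most enriched clusters lie, so these counts describe a small and unusual set. Exons and untranslated regions were not annotated here.

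miRNA hairpins gave a further look at sequence, because their RNA sequence is in RefSeq whichever part of a gene they sit in. Rbm38 clusters on the same strand overlapped 42 of the 1005 hairpins, and 15 of these 42 clusters (35.7%) were enriched. At an overlap of 20 nt or more, GUGUG lay in the covered part in 5 of 12 enriched clusters and 1 of 22 others. The corresponding counts were 3 of 10 and 3 of 24 for Puf60 with exon 5, and 3 of 13 and 3 of 22 for the form without it. Hairpins of the 4 enriched clusters of highest fold that hold GUGUG are printed with that word in capitals. They are Mir3082 within Stub1 (chr17:25831365-25831428, minus strand), Mir6935 within Actg1 (chr11:120347350-120347413, minus strand), Mir703 (chr5:98475556-98475664, minus strand) and Mir5114 within Scd2 (chr19:44303171-44303231, plus strand).
Mir3082: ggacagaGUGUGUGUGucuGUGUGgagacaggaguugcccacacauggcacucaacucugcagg
Mir6935: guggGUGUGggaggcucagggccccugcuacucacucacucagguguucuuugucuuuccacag
Mir703: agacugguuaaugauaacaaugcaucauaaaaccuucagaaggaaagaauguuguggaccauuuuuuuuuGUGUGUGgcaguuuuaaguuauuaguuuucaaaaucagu
Mir5114: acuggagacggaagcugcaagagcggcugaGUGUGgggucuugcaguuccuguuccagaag

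Their clusters had log2 folds of 4.52, 4.0, 3.39 and 3.32 per the authors' deposited table. Each of these clusters reaches past its hairpin, and the reads cannot be assigned to the hairpin or to the host transcript. The cluster over Mir1982, whose hairpin is not among those printed, was enriched at 4.35 per the authors' deposited table. That is above all of the printed ones but Mir3082. Mir1902 at 3.28 and Mir7670 at 2.76, also per the authors' deposited table, were enriched with no GUGUG in the covered part. At the other end, the clusters over Mir3068 and Mir5136 had -4.95 and -4.74 per the authors' deposited table.

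Enrichment was widespread. Of the 49260 Rbm38 clusters, 25063 were enriched (50.9%, 50.4 to 51.3), against 39.1% for Puf60 with exon 5 and 36.1% for Puf60 without it. The median log2 fold was 1.04 per the authors' deposited table (quartiles -0.02 and 2.35), and the range ran from -7.69 to 6.90. Enriched clusters had a median of 2.33 and other clusters one of -0.04 per the authors' deposited table. Most clusters were 50 nt wide (75.4%), and the wider ones were enriched more often: 46.1% at 50 nt, 60.1% at 100 nt, 67.7% at 150 to 200 nt and 80.2% at 250 to 500 nt.

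The share enriched rose step by step towards the 3′ ends of protein-coding genes. Distances were taken from the cluster's centre to the end of the RefSeq gene body on the cluster's strand. Over all protein-coding genes 52.3% of clusters on the gene's strand were enriched (19975 of 38213). In the last 100 nt before the annotated end, 1010 of 1054 clusters were enriched (95.8%), with a median log2 fold of 3.10 per the authors' deposited table. With bins that include their lower bound, the share was 93.6% at 100 to 200 nt, 86.9% at 200 to 500 nt, 81.3% at 500 to 1000 nt and 73.6% at 1000 to 2000 nt. It was 59.0% at 2000 to 5000 nt, 40.8% at 5000 to 10000 nt, 33.8% at 10000 to 50000 nt and 38.1% farther away. This last stretch, where transcripts are cleaved and the poly(A) tail is added, was thus the one with the highest share of the 9 bins.

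Both forms of Puf60 ran the opposite way over most of this range. Puf60 with exon 5 had 10.6% of its clusters enriched in the last 100 nt, 32.4% at 1000 to 2000 nt and 52.2% at 10000 to 50000 nt. The form without exon 5 had 7.51%, 26.7% and 49.9% at these distances. At the 5′ end Rbm38 showed no rise. In the first 100 nt 27.6% of its clusters were enriched, and the share was 29.6% at 200 to 500 nt and 52.7% at 2000 to 5000 nt. The plot of the share by distance shows all bins with their intervals.

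**Figure D1:**
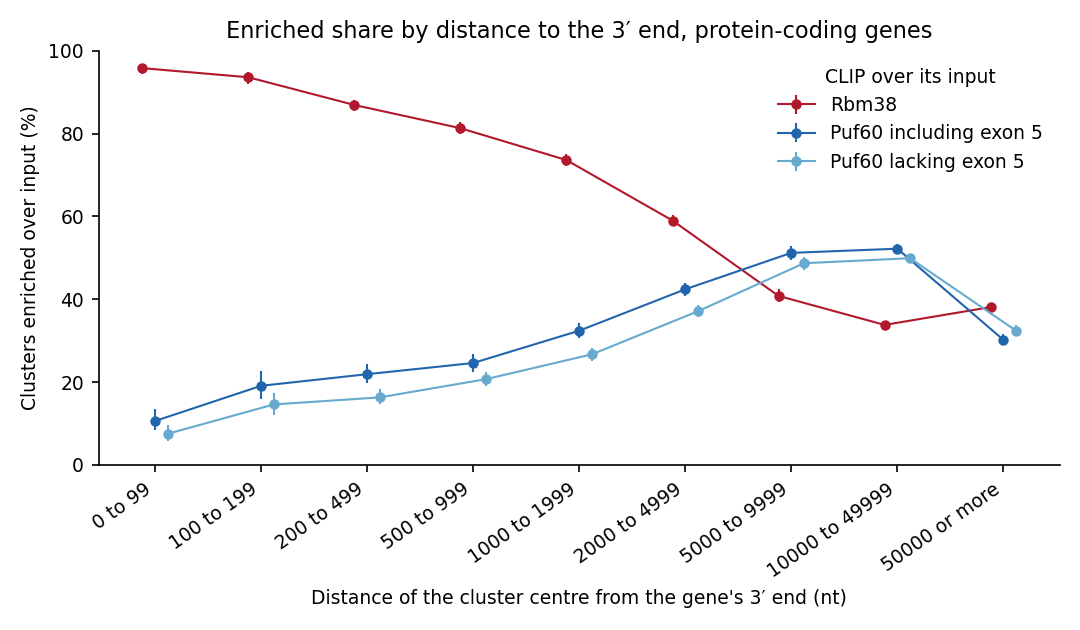
Share of clusters enriched in CLIP over input (percent, vertical axis) by distance from the cluster's centre to the annotated 3′ end of its protein-coding gene (nt, horizontal axis) for Rbm38 and both Puf60 forms, with 95% Wilson intervals over clusters. Rbm38 reaches 95.8% in the last 100 nt, where the Puf60 forms are at 10.6% and 7.51%.

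Folds followed the same order. Within 2000 nt of the 3′ end lay 10470 Rbm38 clusters, and 82.5% of them were enriched, with a median log2 fold of 2.57 per the authors' deposited table (quartiles 1.46 and 3.36). The 1964 clusters within 2000 nt of the 5′ end alone had 38.3% enriched and a median of 0.55 per the authors' deposited table. For the 25779 clusters more than 2000 nt from both ends, 41.0% were enriched and the median was 0.62 per the authors' deposited table (quartiles -0.21 and 1.89). Those inner clusters formed a distribution with a pair of humps: 15.9% of them lay between -0.5 and 0, 8.61% between 1 and 1.5, and 10.7% between 1.5 and 2. The clusters near the 3′ end peaked between 2.5 and 3, a bin that held 16.9% of them.

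**Figure D2:**
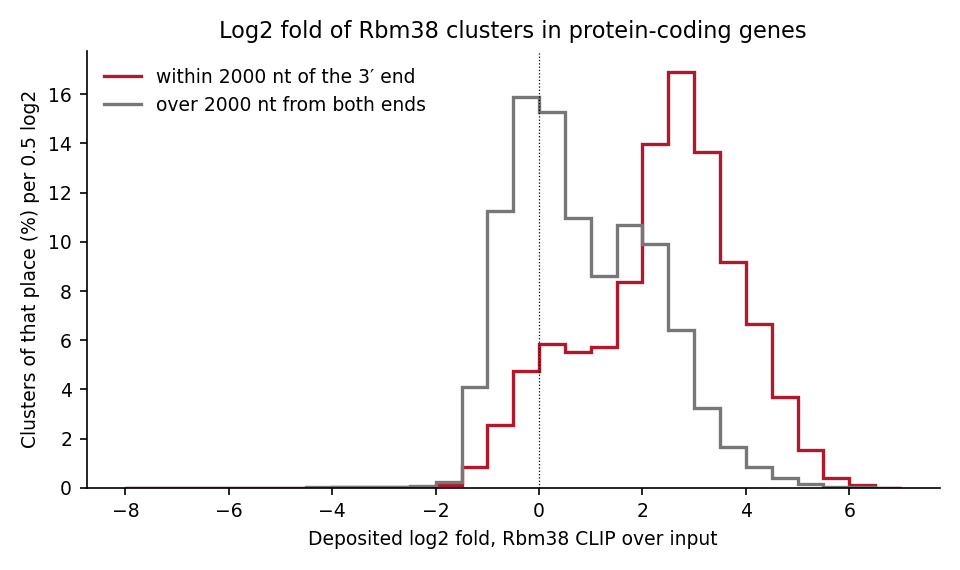
Distribution of the deposited log2 fold of CLIP over input (horizontal axis, bins of 0.5) as percent of the Rbm38 clusters at each place in protein-coding genes (vertical axis). Clusters within 2000 nt of the 3′ end peak between 2.5 and 3, while clusters more than 2000 nt from both ends peak between -0.5 and 0 with a smaller hump between 1.5 and 2.

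Above a log2 fold of 2, stronger clusters lay closer to the end. Enriched clusters with a log2 fold up to 1 per the authors' deposited table lay within 2000 nt of the 3′ end in 20.7% of cases. That share was 26.1% for folds between 1 and 2, 42.5% between 2 and 3, 64.4% between 3 and 4, 76.3% between 4 and 5, and 78.5% above 5 (215 of 274) per the authors' deposited table. The median distances of these 6 classes were 9499, 9807, 2927, 1110, 613 and 323 nt, and the first 2 medians were close to each other. Taken over all enriched clusters, 43.3% lay within 2000 nt of the 3′ end (42.6 to 44.0), against 10.0% of other clusters (9.6 to 10.5).

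Clusters of the same gene were then set against each other. This covered the 2111 protein-coding genes with Rbm38 clusters both within 2000 nt of the 3′ end and more than 2000 nt from both ends. The median log2 fold at the 3′ end was above that inside the gene in 1789 of these genes (84.7%) per the authors' deposited table. The median over genes was 2.63 at the 3′ end and 0.54 inside, with a median difference of 1.62 (quartiles 0.49 and 2.77), per the authors' deposited table. For Puf60 with exon 5 the 3′ end was higher in 442 of 1487 genes (29.7%), and the median difference was -0.65 per the authors' deposited table. Without exon 5 the counts were 410 of 1768 (23.2%), and the median difference was -0.95 per the authors' deposited table. Genes differ in how many clusters stand behind each median, and the spread of the per-library values is unknown.

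**Figure D3:**
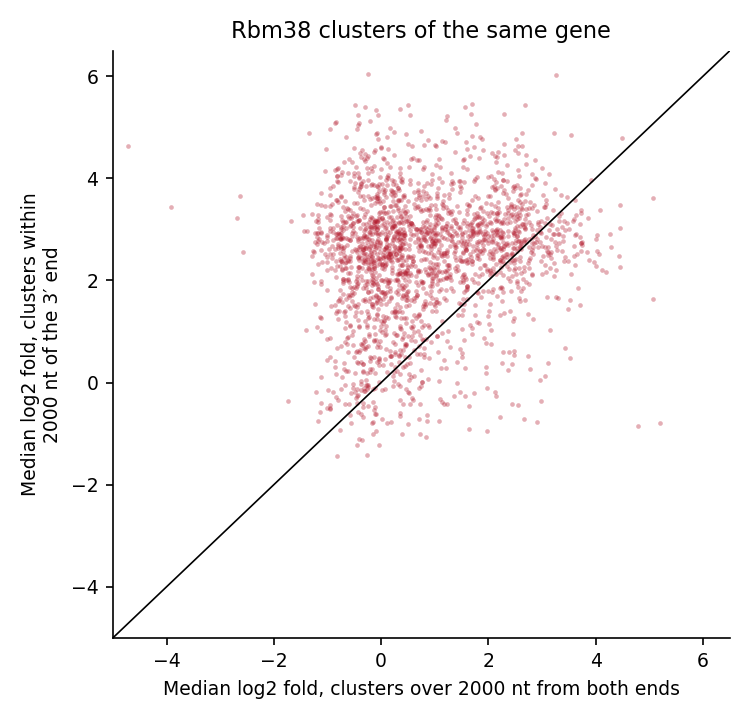
Median deposited log2 fold of the Rbm38 clusters within 2000 nt of the 3′ end (vertical axis) against that of the clusters more than 2000 nt from both ends of the same gene (horizontal axis). Each point is 1 of 2111 protein-coding genes, the line marks equal values, and 1789 points lie above it.

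Some enriched clusters lay just past the annotated ends, outside any gene. Of 222 clusters less than 1000 nt past a 3′ end, 150 were enriched (67.6%), with 60.2% at 1000 to 5000 nt, 44.2% at 5000 to 20000 nt and 41.0% farther away. The highest of the near ones followed Wipi1, a gene of the autophagy machinery, at chr11:109573386-109573585 with a log2 fold of 5.24 per the authors' deposited table. Next within 1000 nt came those after Mxd4, Tmem189 and Ppp2ca, at 5.11, 4.71 and 4.63 per the authors' deposited table. Transcripts that run beyond the RefSeq ends were not annotated here.

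By RNA class, clusters on the strand of protein-coding genes had a higher share enriched than those in lncRNA, pseudogene and small RNA genes. Only protein-coding genes were split by strand, so the other classes may hold clusters of either strand. In protein-coding genes of unknown strand 530 of 872 clusters were enriched (60.8%). Beside the 52.3% of protein-coding genes, 42.3% of clusters in long noncoding RNA genes were enriched (671 of 1586), and 46.2% in pseudogenes. This order of lncRNA and protein-coding genes did not hold with the adjustment recomputed from the deposited p-values, which gave 63.1% and 62.2%. On the strand opposite to protein-coding genes 55.9% were enriched (981 of 1754). Outside genes the share was 44.1% (2044 of 4633). The highest lncRNA cluster had 5.84 per the authors' deposited table. Among lncRNA genes with an established symbol the highest were Mir124-2hg with 5.43, Hnf1aos1 with 4.59 and Chaserr with 4.16 per the authors' deposited table. Mir124-2hg is a host gene of the neuronal miR-124. Pseudogene values may include reads of the parent gene. The highest pseudogene cluster had 6.90 per the authors' deposited table, the highest of all Rbm38 clusters, in a gene without an established symbol. Among pseudogenes with an established symbol the highest were Csnk2a3 with 3.85, Slc10a4l with 3.68 and Cdc34b with 3.46 per the authors' deposited table.

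Small structural RNAs were almost free of enrichment. These RNAs guide modification of ribosomal RNA (snoRNAs), build the spliceosome (most snRNAs) or form the ribosome (rRNAs). Among snoRNAs 1 of 283 clusters was enriched (0.353%), with a median log2 fold of -3.11 per the authors' deposited table. Among snRNAs 3 of 129 were enriched (2.33%), and among rRNAs 0 of 22 (up to 14.9). Puf60 gave 1.89% and 1.5% of snoRNA clusters and 6.67% and 7.49% of snRNA clusters, for the forms with and without exon 5. The lowest Rbm38 cluster of these 3 classes, at -6.78, was in an rRNA gene, and the rRNA median was -3.93 per the authors' deposited table. Among snoRNA genes with an established symbol the lowest were Snora73a at -6.56 and Snora81 at -6.29 per the authors' deposited table. Rnu5g, a copy of the U5 spliceosomal RNA, had -5.23, and Rn7s2 and Rn7s1, copies of the RNA of the signal recognition particle, had -4.15 each per the authors' deposited table. Clusters of the mitochondrial genome also lay low: 0 of 26 were enriched, and the median was -1.08 (range -3.22 to 0.05) per the authors' deposited table. Most of these 26 were placed on the minus strand. They were not split by the strand of the gene, so they may lie opposite to a transcript. The rRNA class above includes mitochondrial rRNA clusters of both strands. How much of each library these classes take up was not analysed here, since no counts were at hand.

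tRNA genes split by isotype. Of 165 clusters in nuclear tRNA genes 42 were enriched (25.5%, 19.4 to 32.6), with a median of -0.48 per the authors' deposited table. Alanine tRNAs had 13 of 20 clusters enriched (65.0%), and the 8 clusters of alanine tRNAs with a TGC anticodon were all enriched, with a median of 4.18 (range 1.24 to 4.83) per the authors' deposited table. At these TGC genes Puf60 with exon 5 had 5 of 8 clusters enriched, with a median of 0.54, and the form without exon 5 had 0 of 8, with a median of -1.22, per the authors' deposited table. Threonine tRNAs had 6 of 11 clusters enriched for Rbm38 (54.5%), 9 of 13 for Puf60 with exon 5 (69.2%) and 1 of 14 for the form without it. Over all nuclear tRNAs Puf60 had 25.2% enriched with exon 5, close to Rbm38, and 1.22% without it. Proline tRNAs had 2 of 3 enriched for Rbm38, cysteine tRNAs 3 of 6 and asparagine tRNAs 3 of 7. Glutamate (0 of 7), glycine (0 of 12) and methionine tRNAs (0 of 9) had none, and the methionine median was -1.79 per the authors' deposited table. The highest single clusters were n-TAtgc5 at 4.83, n-TAtgc11 at 4.82, n-TTcgt2 at 4.76 and n-TAtgc1 at 4.73 per the authors' deposited table, and n-TMcat11 was the lowest at -5.40. tRNA genes of 1 anticodon are near-identical copies, so the reads may be split between them, and the clusters of an anticodon are not separate observations.

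**Figure D4:**
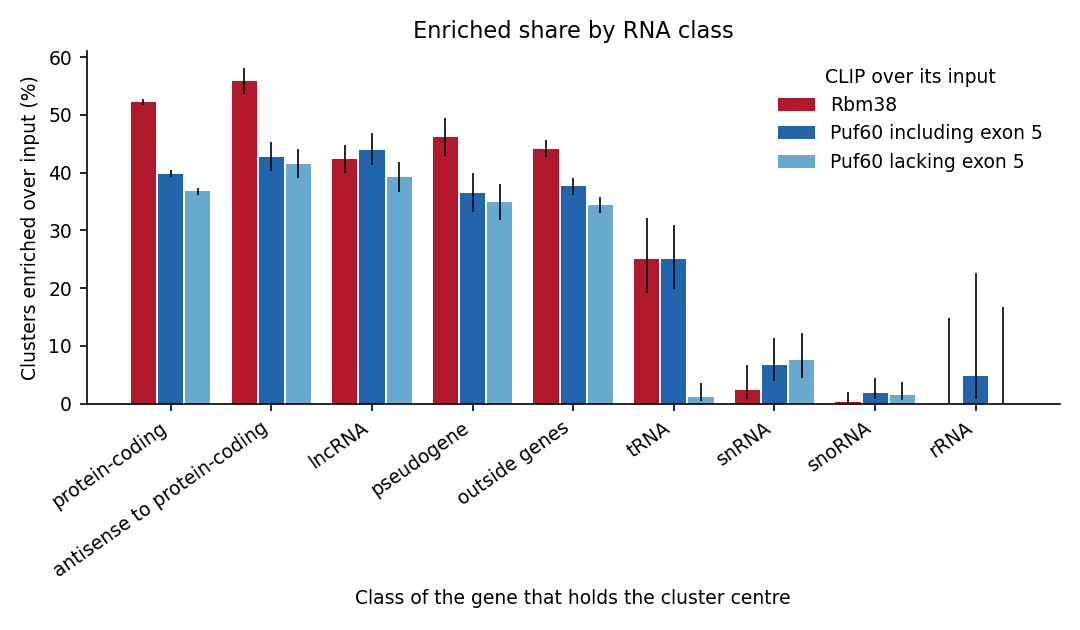
Share of clusters enriched (percent) by RNA class for Rbm38 and both Puf60 forms, with 95% Wilson intervals over clusters. For Rbm38, protein-coding transcripts lie at 52.3% and snRNAs and snoRNAs at 2.33% and 0.353%.

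Counted by gene, 6017 of the 7999 genes with an Rbm38 cluster had at least 1 enriched cluster (75.2%). The shares were 57.3% and 55.1% in the tables of Puf60 with and without exon 5. Among protein-coding genes it was 5446 of 6499 (83.8%). Of these 5446 genes, 2214 had 1 enriched cluster, 2045 had 2 to 4, 1086 had 5 to 19 and 101 had 20 or more. Among the 1971 protein-coding genes with at least 5 clusters, all clusters were enriched in 212 and none in 40. A gene with more clusters has more chances of an enriched one.

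The highest clusters near 3′ ends belonged to genes of very different kinds. Rps24, a protein of the small ribosomal subunit, had 6.65 at chr14:24495751-24495850, 1159 nt from the end of its gene body, per the authors' deposited table. Grn, which encodes the lysosomal and secreted protein progranulin, had 6.5 at chr11:102436651-102436800, 83 nt from the end, per the authors' deposited table. Ap2s1, the small subunit of the AP2 clathrin adaptor, had 6.49 at chr7:16749201-16749300, 39 nt from the end, per the authors' deposited table. These clusters lay within or close to the last stretch of the gene, and their deposited adjusted p is listed as 0.

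Sec61g, a subunit of the channel through which proteins enter the endoplasmic reticulum, followed with 6.4 at 123 nt per the authors' deposited table. Dnmt1, the maintenance DNA methyltransferase, had 6.33 at 155 nt, and Atp6ap2, an accessory subunit of the vacuolar proton pump, had 6.32 at 500 nt per the authors' deposited table. The other 4 were Scg2 (secretogranin II, a secretory granule protein) at 6.16, St3gal5 (the synthase of ganglioside GM3) at 6.15, Fbl (fibrillarin, the methyltransferase of snoRNPs) at 6.11 and Chchd2 (a mitochondrial protein) at 6.05 per the authors' deposited table. The strands of Fbl and Chchd2 were inferred from their clusters.

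Where Puf60 clusters overlapped these places, they were far lower. The places were picked for their high Rbm38 folds, so the choice itself favours a gap in this direction. At the Rps24 place the Puf60 form with exon 5 had 0.20 and the form without it 0.13 per the authors' deposited tables. At Chchd2 they had -1.19 and -1.38, and at Sec61g 1.04 and 0.10, per the authors' deposited tables. Fbl had the highest Puf60 value among the 10, with 1.72 for the form with exon 5 and 0.33 for the form without it per the authors' deposited tables. Ap2s1 and St3gal5 had no overlapping Puf60 cluster. The tables were made separately against their own inputs, so the size of a gap between them was not tested.

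Dnmt1 shows how local the signal could be. Its cluster near the end stood at 6.33, while the median of its 7 clusters was -0.13 and the lowest -0.74 per the authors' deposited table. Scg2 had 3 of 7 clusters enriched, with a median of 0.82 against 6.16 at the highest per the authors' deposited table. In Atp6ap2, by contrast, all 3 clusters were enriched, between 2.42 and 6.32 per the authors' deposited table.

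Far inside genes, the highest fold was that of Mapt, the gene of the microtubule-associated protein tau. It had 6.43 at chr11:104330001-104330100 per the authors' deposited table, and at 2039 nt from the 3′ end it lay just beyond the limit of 2000 nt. Its strand was inferred from its clusters. Npffr1, a neuropeptide receptor gene, had 5.65 at 2988 nt from the end per the authors' deposited table. Others lay deep in the gene. Ankrd44 had 6.21 at 89971 nt, Ephb1, a receptor for ephrin-B ligands, 6.18 at 50033 nt, and Rabgap1 6.09 at 82194 nt per the authors' deposited table. Cep290, a ciliary protein, had 6.19 at 8445 nt, Dnajb11, a chaperone of the endoplasmic reticulum, 6.02 at 7833 nt, and Paqr3 5.81 at 9897 nt per the authors' deposited table. Add2, encoding an adducin of the membrane skeleton, had 5.94 at 84233 nt per the authors' deposited table. Atxn1 had 5.95 per the authors' deposited table, but its strand rested on its clusters alone and its position is uncertain. In 4 of these genes (Ankrd44, Ephb1, Add2 and Npffr1) the named cluster was the only one listed. Most were 50 nt wide, unlike those at the 3′ ends.

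The lowest cluster of all was in a protein-coding gene, Map7d2, which encodes a microtubule-associated protein, at chrX:159449251-159449350, with -7.69 per the authors' deposited table. The same gene had 5 of 14 clusters enriched, up to 4.15 per the authors' deposited table. Of the 10 lowest clusters assigned to protein-coding genes, 1 per gene, 3 overlapped a small RNA gene: Nop56 at -5.01 (a snoRNA gene), Alkbh1 at -4.95 (Mir3068) and Rpl3 at -4.45 (Snord43) per the authors' deposited table. The nearest annotated small RNA of the other 7 lay between 33608 and 1316760 nt away. Those were Serpine3 with -5.69, Kcnip1 with -4.76, Gtpbp1 with -4.72, Prex1 with -4.34, Gphn with -4.30 and Il31ra with -4.29, beside Map7d2, per the authors' deposited table. At Serpine3 both Puf60 forms were also low, at -5.27 with exon 5 and -4.69 without it per the authors' deposited tables. At Il31ra they were at -0.65 and 0.21 per the authors' deposited tables.

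The genes with most enriched clusters were long. Pcbp3, which encodes a poly(C)-binding protein, had 296 of 640 clusters enriched, with a median log2 fold of 1.03 per the authors' deposited table and a median distance to the 3′ end of 108545 nt. Maml3, a coactivator of Notch signalling, had 166 of 358 and Ankrd11, a chromatin regulator, 150 of 295. Samd5 had 145 of 560, Map1b, a neuronal microtubule protein, 141 of 277, Efna5, an ephrin ligand, 131 of 292, and Gse1 116 of 222. Rere had 88 of 202, Cbx7 79 of 169 and Cmip 76 of 133. The shares ran from 25.9% in Samd5 to 57.1% in Cmip. Beside the 52.3% of all protein-coding clusters, Cmip lay above, Gse1 was equal at 52.3% and the other 8 lay below. These genes lead by how many clusters they hold and not by their folds: the highest in any of them was 4.44, in Efna5, per the authors' deposited table.

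Among protein-coding genes with at least 5 clusters and every cluster enriched, those of highest median had 5 or 6. Dnajb6, a co-chaperone gene, had 6 of 6 enriched with a median of 4.55, and Tmtc4 had 6 of 6 with 4.30 per the authors' deposited table. Hmgcs1, the cytosolic HMG-CoA synthase of the cholesterol pathway, had 6 of 6 with 4.12 per the authors' deposited table. Rhob, a small GTPase, and Klhl9, an adaptor of a ubiquitin ligase, had 5 of 5 each, with medians of 4.09 and 4.02 per the authors' deposited table. Except for Dnajb6, all clusters of these genes lay within 2000 nt of the 3′ end. The gene body of Rhob is only 2349 nt long, so most of it lies in that stretch. At Hmgcs1 Puf60 had 0 of 8 clusters enriched with exon 5 and 0 of 14 without it.

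At the other extreme, H1f4, a linker histone gene of a class whose messages typically end in a stem-loop in place of a poly(A) tail, had 0 of 5 clusters enriched and a median of -1.20 per the authors' deposited table. Its gene body is 782 nt long, so all 5 necessarily lay within 2000 nt of the 3′ end. Puf60 had 2 of 4 and 2 of 2 enriched there, with and without exon 5. Cic, a transcriptional repressor gene, had 0 of 6 and a median of -0.97, with Puf60 at 2 of 3 and 3 of 4 and medians of 2.50 and 3.52 per the authors' deposited tables. Myo3a (0 of 7), Scap (0 of 7), the escort protein of the sterol-regulated transcription factors, and Hspg2 (0 of 10), a basement membrane proteoglycan, had medians of -1.19, -1.0 and -0.85 per the authors' deposited table.

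Messages reported for Rbm38 in other work were mostly enriched near their ends. Of 11 such genes 9 had clusters, and each of the 9 had an enriched one, beside 83.8% of all listed protein-coding genes. Trp63 and Trp73 were not listed. Together the 9 genes had 54 of 84 clusters enriched (64.3%, 53.6 to 73.7). Within 2000 nt of the 3′ end 30 of 31 were enriched, beside 82.5% over all protein-coding genes, and 20 of 46 more than 2000 nt from both ends, beside 41.0%. Cdkn1a, which encodes the cell cycle inhibitor p21, had clusters at chr17:29099451-29099500 and chr17:29099651-29099700, with log2 folds of 2.80 and 2.12 per the authors' deposited table. They lay 1246 and 1046 nt from the end, and neither was listed for Puf60.

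Trp53, the gene of p53, had 4 clusters, and only those nearest to the end were enriched. These had 1.6 at 347 nt and 1.81 at 47 nt, while the clusters at 1197 and 4347 nt had -0.85 and -0.23 per the authors' deposited table. At the 47-nt place the Puf60 form with exon 5 had 1.82 and the form without it 0.63 per the authors' deposited tables. Mdm2, the ubiquitin ligase of p53, had all 5 clusters of its strand enriched, between 1.80 and 3.99 per the authors' deposited table. The highest of them lay 586 nt from the end. A 6th cluster on the opposite strand had 2.20 per the authors' deposited table.

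Hif1a, the oxygen-sensing transcription factor, had 3 of 3 clusters enriched, at 2.19, 4.34 and 3.37 per the authors' deposited table. Myc had 2.63 and 2.60 at 210 and 35 nt from the end, and -0.34 at 2210 nt per the authors' deposited table. At that inner place Puf60 had 3.01 with exon 5 and 1.52 without it per the authors' deposited tables, so at Myc the proteins peaked at different places. Gdf15, a secreted stress factor, had 3.94 at 93 nt, 1.25 and, not enriched, 0.33 per the authors' deposited table. The strand of Myc was inferred from its clusters.

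Elavl1, which encodes HuR, a protein that stabilises AU-rich messages, had 33 clusters. Within 5000 nt of the 3′ end 17 of 19 were enriched, and beyond that 1 of 14, beside 74.7% and 36.7% over all protein-coding genes. All 8 within 2000 nt were enriched, from 1.30 to 3.33 per the authors' deposited table. Epb41, the membrane skeleton protein 4.1 whose alternative exon is reported to be regulated by Rbm38 in red cell precursors, had a different pattern. Its 10 clusters were all enriched, 5 of them within 5000 nt and 5 beyond, from 1.22 to 4.11 per the authors' deposited table.

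The gene of Rbm38 itself had 4 of 5 clusters enriched. Its log2 folds were 3.35, -0.66, 1.63, 2.41 and 2.73, in order along chromosome 2 towards the 3′ end, per the authors' deposited table. Neither Puf60 table listed a cluster there. RNA from the induced transgene and from the cell's own gene cannot be told apart in these values. Puf60 had 4.43 at 104 nt from the end of its gene and -0.25 at 2429 nt for Rbm38 per the authors' deposited table. In the Puf60 tables the place near the end had -0.45 and -0.39, and the inner one 4.44 and 2.83, with and without exon 5, per the authors' deposited tables.

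Across 16 lists of genes, 9 had a share of enriched clusters above the 50.9% of all clusters, and 7 were above the corresponding 46.1% with a log2 fold above 1 as the call. The intervals of 3 of the 9 (neuronal cytoskeleton, oxidative phosphorylation, and SR proteins and hnRNPs) included 50.9%, and oxidative phosphorylation lay below the 52.3% of protein-coding clusters. The p53 response genes had 20 of 23 clusters enriched (87.0%, 67.9 to 95.5), but only 8 of 28 were listed, Rbm38 and Mdm2 among them. Of their 23 clusters 14 lay within 2000 nt of the 3′ end, where 82.5% of all protein-coding clusters were enriched, and all 14 were enriched. Ei24, a p53-induced gene, had 4 of 4, up to 3.76 per the authors' deposited table, and Bax, the pore-forming inducer of cell death, had 1 of 2, with 3.39 at 66 nt from the end per the authors' deposited table. For the immediate early genes and other genes with AU-rich elements the share was 51 of 75 (68.0%, 56.8 to 77.5), and 14 of 26 were listed. Of their clusters within 2000 nt of the 3′ end, 36 of 41 were enriched (87.8%), near the 82.5% of all protein-coding genes. Junb reached 5.82 at 77 nt, Egr1 5.01 at 105 nt and Jund 4.78 at 315 nt per the authors' deposited table, and all 3 encode transcription factors of the Jun and Egr families. Vegfa, an angiogenic growth factor, had 7 of 21 enriched, and 5 of 6 near the end.

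Lists of secretory and lysosomal genes were also above the background. The endoplasmic reticulum and secretory list had 178 of 284 clusters enriched (62.7%, 56.9 to 68.1). All 38 of its genes were listed, and 37 had an enriched cluster. Tmed9, a cargo receptor, had 5.90, Herpud1 5.71 and Pdia6, a disulfide isomerase, 5.45 per the authors' deposited table. Herpud1 encodes a protein of the degradation pathway of the endoplasmic reticulum. With a log2 fold above 1 as the call this list came to 53.5%, beside 46.1% of all clusters. Near the 3′ end 97 of its 112 clusters were enriched (86.6%), near the 82.5% over all protein-coding genes. Inside its genes the share was 53.7%, beside 41.0%. The lysosome and V-ATPase list had 104 of 170 (61.2%, 53.7 to 68.2), against 10.3% and 14.4% for Puf60 with and without exon 5. This list had 61 of 72 clusters near the 3′ end enriched (84.7%), also near 82.5%, and 47.1% of those inside. Its V-ATPase genes, taken out after their values were seen, had 14 of 15 names listed. Each of the 14 had an enriched cluster, beside 83.8% of all listed protein-coding genes. For those 14, the cluster of smallest p lay within 2000 nt of the 3′ end in every gene. Within that stretch 37 of their 40 clusters were enriched, beside 82.5% over all protein-coding genes. Atp6v1b2, a subunit of the catalytic head of the proton pump, had 5 of 5 enriched, up to 5.27 per the authors' deposited table, where Puf60 without exon 5 had 0 of 6.

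RNA-binding proteins with restricted tissue patterns had 194 of 330 clusters enriched (58.8%, 53.4 to 64.0). Igf2bp2 had 5.40 at 52 nt from the end and Celf1, itself a GU-binding protein, 5.31 at 196 nt per the authors' deposited table. Elavl4, the neuronal relative of HuR, had 10 of 21 enriched, with 8 of 8 near the 3′ end. SR proteins and hnRNPs had 408 of 758 (53.8%, 50.3 to 57.3), and here the Puf60 shares of 58.6% and 54.6% were as high. Hnrnpk had 7 of 18 clusters enriched for Rbm38, against 22 of 27 for Puf60 with exon 5 and 24 of 30 without it.

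Below the background were the cytosolic ribosomal proteins, with 190 of 450 clusters enriched (42.2%, 37.7 to 46.8). Nearly all of them were listed (79 of 80), and 70 had an enriched cluster (88.6%), beside 83.8% of all listed protein-coding genes. Their clusters near the 3′ end were enriched in 46.5% of cases (134 of 288), against 82.5% over all protein-coding genes. These genes are short, so much of a gene body lies within 2000 nt of its end. Rpl32 shows a narrow signal: 4.92 at 47 nt from the end, and 3 other clusters not enriched per the authors' deposited table. Rpl27 had 4.8 at 95 nt and Rplp2 4.62 at 58 nt per the authors' deposited table.

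The oxidative phosphorylation list, which held nuclear genes alone, was at 51.8% (44.3 to 59.3), against 18.7% and 14.9% for Puf60. Near the 3′ end 69.2% of its clusters were enriched (63 of 91) and inside 21.7% (10 of 46), both below the 82.5% and 41.0% of all protein-coding genes. Atp5g3, a subunit of the ATP synthase ring, had 4.68 at 164 nt per the authors' deposited table. Neuronal cytoskeleton genes were at 52.4%, against 20.5% and 18% for Puf60, with Gap43, a growth cone protein, at 5.10 per the authors' deposited table. Translation factors were at 48.7%, and chaperones at 46.1%, in which Hsph1 had 4 of 4 enriched and Cct8 reached 5.56 per the authors' deposited table.

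Chromatin genes were at 46.5% (42.9 to 50.1), cell cycle genes at 45.8% (39.0 to 52.7), synaptic adhesion and Eph genes at 45.3% (40.7 to 50) and clathrin and AP2 genes at 41.4% (34.0 to 49.2). In these 4 lists 86.3%, 89.8%, 95.7% and 72.7% of the clusters near the 3′ end were enriched, beside 82.5% over all protein-coding genes. Inside the genes the shares were 39.2%, 26.6%, 41.6% and 32.1%, beside 41.0% over all. Uhrf1, the partner of Dnmt1 in DNA methylation, had 7 of 7 enriched, up to 4.97 at 60 nt from the end per the authors' deposited table. Cdkn1b, the cell cycle inhibitor p27, had 6 of 6, up to 4.70 at 224 nt per the authors' deposited table. Lists may differ in the length and level of their genes, which was not adjusted for.

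**Figure D5:**
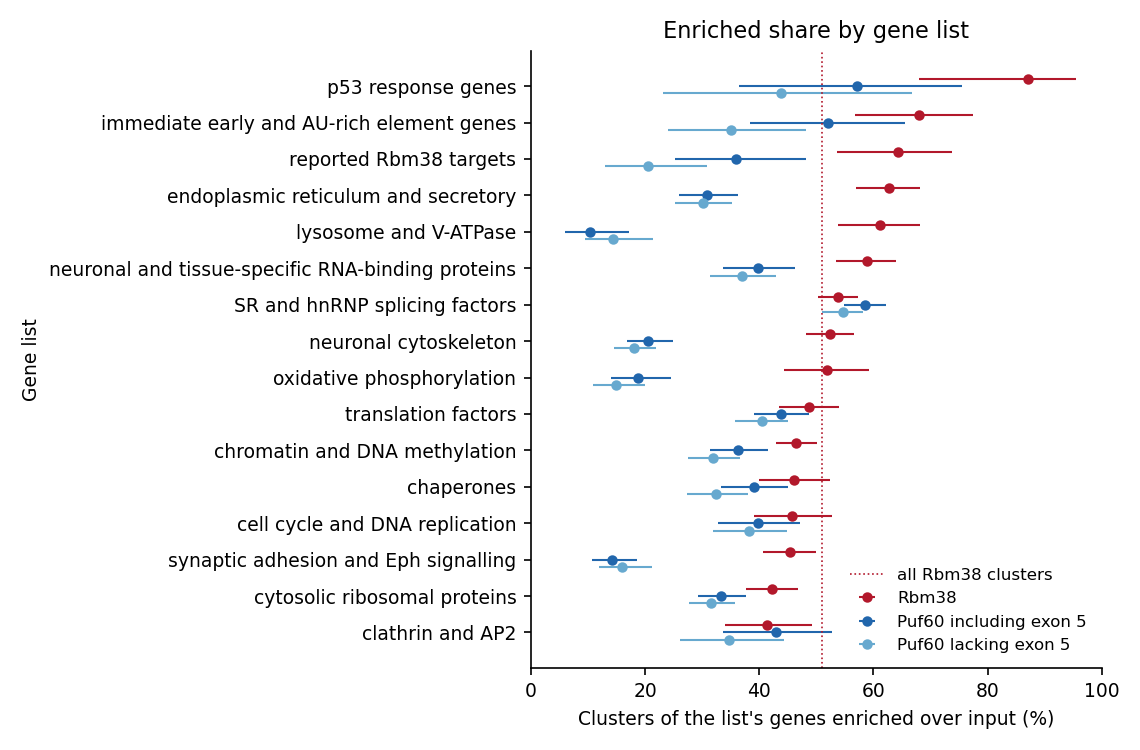
Share of clusters enriched (percent) in each gene list for Rbm38 and both Puf60 forms, with 95% Wilson intervals over clusters and a line at 50.9%, the share over all Rbm38 clusters. The p53 response genes are highest at 87.0% and the clathrin and AP2 genes lowest at 41.4%.

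Markers of the labelled cell were only partly listed. Of 13 markers of sympathetic neuroblasts 5 had clusters (Phox2a, Hand2, Gata2, Chga and Chgb), while Th and Dbh were among those with none. Together the 5 listed markers had 18 of 41 clusters enriched (43.9%, 29.9 to 59.0), beside 50.9% of all Rbm38 clusters. Gata2 had 8 of 10 clusters enriched and Chgb 5 of 9, and the share was lower in the rest of the 5. A single cluster each was listed for 1 of 5 fibroblast and 1 of 5 blood markers (Col1a1 and Ptprc). A list of clusters is no measure of expression, and a gene with no cluster may still be expressed.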

How the data were processed

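Per the labels, iCLIP libraries were made from N2A cells. Per the submitters' processing notes, TopHat and edgeR were used, and the builds NCBIM37 and mm10 are named without roles. Coordinates fall on RefSeq GRCm38 genes. The authors deposited 1 table per protein that gives every cluster 3 values: CLIP over input as a log2 fold, its p-value, and that p-value adjusted. The labels and the tables give no counts, so the edgeR test planned for counts could not be run, and the authors' calls were used (adjusted p under 0.05). Of the Rbm38 clusters 264 have no p-value, 986 have a p listed as 0, and 5767 have a p under 0.05 with an adjusted p of 1, in the authors' deposited table. The depth per sample is unknown. There were 0 other columns of values.

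Each cluster was given to the RefSeq gene body (GRCm38.p6) that holds its centre, small RNA genes first. The strand of a cluster was read from its place on a 50-nt grid of starts: plus-strand starts fall on 0 and minus-strand starts on 35. The strand of a gene came from its RefSeq start window, or else from at least 3 clusters with 80% on 1 strand. Of 31624 Rbm38 clusters in a single protein-coding gene of known strand, 29937 lay on its strand. Inferred and annotated strands were the same in 3590 of 3802 genes. Puf60 clusters overlapping by 1 nt or more are given beside the named ones.

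Named genes are the 10 highest clusters near the 3′ end, the 10 highest inside genes and the 10 lowest, 1 per gene, the 10 genes with most enriched clusters, and the 5 genes each with all or no clusters enriched by median (at least 5 clusters). They also include up to 4 per list by p, the 3 highest per noncoding class, and Rbm38, Puf60 and the reported targets. Only genes with an established symbol were used. A few genes that the rule or the lists name are not reported here. The regions, lists and tests were chosen with earlier results of these data known. Tools were Python 3.11.15, pandas 2.3.3, numpy 2.4.6, scipy 1.17.1 and matplotlib 3.10.9; the code was tested on simulated data. Alternatives were another call rule, other windows and strand rules, and leaving out crowded or short genes.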

Additional observations from a re-analysis of the deposited data

How the results depend on the processing

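The number of enriched clusters was 25063 as reported, 24556 at an adjusted p under 0.01, 30358 with the adjustment recomputed from the deposited p-values and 22718 at a log2 fold above 1. The gap between enriched and other clusters in the share within the window before the 3′ end was 33.2 percentage points. It was 25.2 with a window of 1000 nt and 36.9 with 5000 nt. Leaving out genes with over 50 clusters gave 37.3, and leaving out genes under 10000 nt gave 32.2. Alternatives chosen after seeing the data gave 31.9 with gene strands from clusters alone, 28.1 for clusters of 50 nt only and 37.1 for the highest cluster of each gene. Every one of these had the same direction. The gap was not computed with the adjustment recomputed from the deposited p-values. Genes with an enriched cluster numbered 6017, and 3360 had at least 2. With the adjustment recomputed, 62.2% of protein-coding clusters, 63.1% of lncRNA clusters and 39.9% of tRNA clusters were enriched, so that lncRNAs were no longer below protein-coding genes. With GTGTG counted in clusters at least 25 nt inside a start window, chosen after seeing the data, the shares were 18.8% and 7.42%. No paired analysis was possible because the tables hold no value per library, and no replicate could be left out for the same reason.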

Other observations

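Clusters on the strand opposite to a protein-coding gene were enriched in 981 of 1754 cases (55.9%). The genes with most enriched ones of this kind are given here. Kcnj6, a potassium channel gene, had 22 of 54 such clusters enriched, with a median log2 fold of 0.69 and a highest of 3.47 in the authors' deposited table. Dlg2, a synaptic scaffold gene, had 10 of 11 enriched, up to 4.72 in the authors' deposited table. Galntl6 had 8 of 8, with a median of 2.03 and a highest of 5.64 in the authors' deposited table. Slc38a6 had 8 of 14, Itgbl1 7 of 12 and Pitpnc1 6 of 15. A strand rule that places a cluster wrongly would also put it in this class, and 29937 of 31624 clusters in single protein-coding genes of known strand lay on the strand of the gene.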
